A study of Mus musculus with 4 samples.

Results

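Peaks of Musashi-1 (Msi1) CLIP-seq that were listed in both TRE-Msi1 libraries beside, but not on, a wild-type peak were described in mouse intestinal epithelium. They are called flanking shared peaks here. A flanking shared peak is a peak of TRE-Msi1 replicate 2 that shares at least 1 base with a peak of TRE-Msi1 replicate 1 on the same strand, overlaps no wild-type peak on that strand, and has a wild-type peak on that strand within 500 bp. Distances are the bases between facing edges, so peaks that touch are 0 bp apart. The rule chose 570 peaks of the 40776 in the TRE-Msi1 replicate 2 list, or 1.40%, and the 4 lists of the study hold 240811 peaks in all. The members were thus selected on measured peak positions, so their being shared, free of wild-type overlap and near a wild-type peak is no finding. The 570 rows are 552 distinct intervals, of which 18 were listed more than once.

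Musashi-1 is an RNA-binding protein of stem and progenitor cells that recognises short motifs with a UAG core, often in 3' untranslated regions, and alters the translation or stability of the bound transcript. In the intestine it is known from the crypt, where the epithelial stem cells lie. CLIP-seq crosslinks proteins to bound RNA with ultraviolet light, recovers one protein by immunoprecipitation and sequences the RNA that comes with it. Peaks that lie close together on one strand can mark neighbouring contact sites on one transcript, or parts of a single broad one, and a peak list does not tell these apart.

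The study compared 2 groups of 2 libraries, all made with an antibody against Msi1. Wild-type libraries came from crypts of 2 control mice without doxycycline. TRE-Msi1 libraries came from the total epithelium of 2 mice that carried an inducible Msi1 transgene and had received doxycycline, its inducer, for 24 h. The sources used here do not state the promoter that drives the transactivator or the age of the mice. Genotype, doxycycline and the cells taken changed together and cannot be told apart. No library without Msi1 pulldown serves as background, read depth is unknown, and a peak is a listed position rather than a proven binding site. Peaks are named by position in the mouse build mm9, since no gene annotation of that build was used here, and the labelled tissue was therefore not checked against marker genes.

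The TRE-Msi1 replicate 1 list stands apart from the other 3. It holds 189594 peaks with a median width of 40 bp, against 4863 peaks of 74 bp in wild-type replicate 1, 5578 of 75 bp in wild-type replicate 2 and 40776 of 75 bp in TRE-Msi1 replicate 2. Its peaks are also displaced towards the 5' end of the RNA. For pairs of peaks of 2 lists with centres less than 150 bp apart, the most frequent offset of a TRE-Msi1 replicate 1 centre from a TRE-Msi1 replicate 2 centre was -60 bp on the plus strand and -40 bp on the minus strand, where a negative value is 5' on the RNA. Against wild-type replicate 1 the values were -50 and -30 bp, and against wild-type replicate 2 they were -70 and -40 bp. Between TRE-Msi1 replicate 2 and wild-type replicate 2 the most frequent offset was 0 bp on both strands. Every value that uses TRE-Msi1 replicate 1 peaks, and so the choice of members itself, rests on this displaced list. The values with that list moved by 60 and 40 bp towards the 3' end, an alternative added after the data were seen, are given for the number of members, their distance, side and strand, and the share of wild-type neighbours overlapped after induction; the other results were not computed with the moved list.

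**Figure D1:**
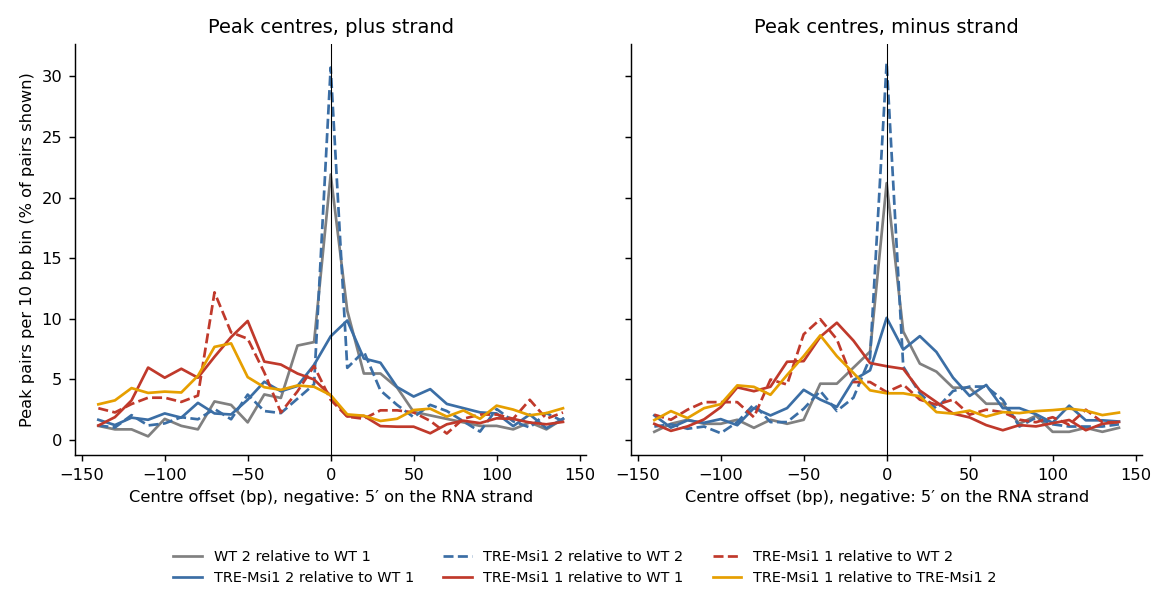
Offsets between peak centres of 2 lists on the plus strand (left) and minus strand (right). The x axis is the offset in bp, negative towards the 5' end of the RNA, and the y axis is the percent of the peak pairs shown that fall in each 10 bp bin; lines are pairs of lists. The lines of TRE-Msi1 replicate 1 peak left of 0, near -60 bp and -40 bp against TRE-Msi1 replicate 2, whereas the TRE-Msi1 replicate 2 line against wild-type replicate 2 peaks at 0.

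The counts in this paragraph use the same positions as the rule, so they describe the size of the set and are no finding. Of the 2310 peaks of TRE-Msi1 replicate 2 shared with replicate 1, 802 overlapped a wild-type peak, 570 flanked one and 938 had none within 500 bp. The flanking peaks were 24.7% of all shared peaks (95% Wilson interval 23.0 to 26.5%) and 37.8% (35.4 to 40.3%) of the 1508 without wild-type overlap. Among the 37151 peaks of TRE-Msi1 replicate 2 that were neither shared nor overlapped a wild-type peak, 2206 had a wild-type peak within 500 bp, which is 5.94% (5.70 to 6.18%). The Wilson intervals cover counting error alone and take each peak as independent. Peaks of one locus share their source and there is 1 list per library, so no test was made over peaks.

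The members crowded towards the wild-type peak. The median distance was 121.5 bp (95% interval 109 to 144 bp, from order statistics), with quartiles of 41 and 286.5 bp and a range from 0 to 500 bp. Unshared flanking peaks lay farther out, at a median of 205.5 bp (196 to 218 bp). The numbers per 50 bp of distance fell from 206 at 0 to 24 bp to 124 at 25 to 49 bp and 82 at 50 to 74 bp, then to 42 at 150 to 199 bp and 30.2 at 400 to 500 bp. In all, 103 members (18.1%) lay under 25 bp from a wild-type peak, 206 (36.1%) under 75 bp, which is about a peak width, and 399 (70.0%) under 250 bp. Of the unshared flanking peaks, 19.1% lay under 75 bp. With TRE-Msi1 replicate 1 moved as above, the median distance of the members was 141 bp. At the 500 bp limit, 9 members lay 482 to 500 bp out with a median TRE-Msi1 replicate 2 score of 14, and 12 shared peaks just outside, at 501 to 519 bp, had a median score of 12.

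**Figure D2:**
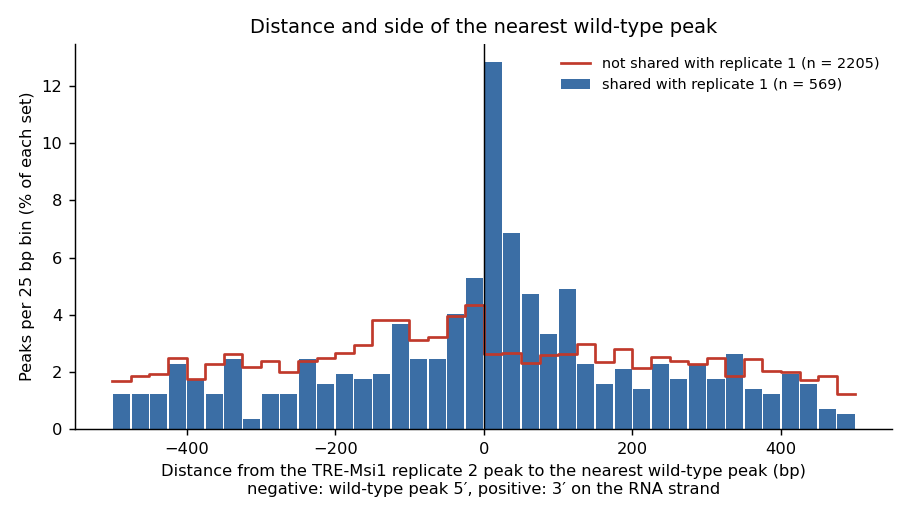
Position of the nearest wild-type peak relative to the flanking shared peaks (bars) and the unshared flanking peaks (line), leaving out peaks with wild-type peaks at equal distance on both sides. The x axis is the distance in bp, negative where the wild-type peak is 5' on the RNA, and the y axis is the percent of each set per 25 bp bin. The members peak in the bin just 3' of 0, where 73 wild-type neighbours lie under 25 bp, against 30 on the 5' side.

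The nearest wild-type peak lay more often 3' of the member than 5' of it, and this held for the closest neighbours. It was 3' in 331 members and 5' in 238, with 1 member at equal distance on both sides, so that 41.8% (37.8 to 45.9%) had it on the 5' side. Under 75 bp the 5' share was 32.5% (26.5 to 39.2%, 67 of 206). At 75 to 149 bp it was 43.4% (34.4 to 52.9%), and at 150 bp or more it was 48.6% (42.6 to 54.7%), an interval that holds equal shares. Over all distances the share was 40.1% (34.5 to 45.9%) on the plus strand and 43.6% (37.9 to 49.3%) on the minus strand, and under 75 bp it was 33.1% and 31.6%. At 75 to 149 bp the strands differed, with 25% (14.6 to 39.4%, n = 44) on the plus strand and 56.5% (44.1 to 68.1%, n = 62) on the minus strand. At 150 bp or more the shares were 54.6% (45.2 to 63.7%) and 44.3% (36.6 to 52.3%). Members whose nearest peak came from wild-type replicate 1 had 42.9% on the 5' side (38.6 to 47.4%, n = 481), and those nearest to wild-type replicate 2 had 36.0% (26.8 to 46.3%, n = 89). Neighbours on the 5' side were farther away, at a median of 166 bp (125 to 202 bp) against 105 bp (85 to 118 bp) on the 3' side.

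Unshared flanking peaks, the rest of the flanking peaks of TRE-Msi1 replicate 2, had the wild-type peak 5' in 54.0% (51.9 to 56.1%) and, under 75 bp, in 60.2% (55.4 to 64.7%). Members and unshared peaks together, the 2776 flanking peaks of TRE-Msi1 replicate 2, had it 5' in 51.5% (49.7 to 53.4%). The 4324 flanking peaks of the displaced TRE-Msi1 replicate 1 list had it 5' in 36.6% (35.1 to 38.0%), and in 23.2% (21.3 to 25.2%) under 75 bp. Between the wild-type lists, replicate 1 peaks that flanked replicate 2 had their neighbour 5' in 51.4% (46.7 to 56.2%, n = 418), and the reverse gave 50.8% (45.4 to 56.1%, n = 331). Under 75 bp these shares were 53% (43.3 to 62.5%) and 47.3% (37.5 to 57.4%), and at 75 to 149 bp they were 42.2% (32.1 to 52.9%) and 62.0% (50.3 to 72.4%).

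The set of members and its 5' share changed when TRE-Msi1 replicate 1 was moved. With that list moved, 633 peaks met the rule, and 395 of the 570 members (69.3%, 65.4 to 72.9%) remained among them. The 5' share of the 633 was 49.8% (46.0 to 53.7%), and under 75 bp it was 44.9% (38.2 to 51.7%), and both of these intervals hold equal shares. The 395 members that remained had their wild-type neighbour 5' in 44.4% (39.6 to 49.4%) and, under 75 bp, in 34.4% (26.8 to 42.8%). All 395 had also been chosen with the list as deposited, so their shares are not independent of its displacement. The 238 peaks that entered had it 5' in 58.8% (52.5 to 64.9%), and the 175 that left had it 5' in 36.0% (29.3 to 43.3%).

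**Figure D3:**
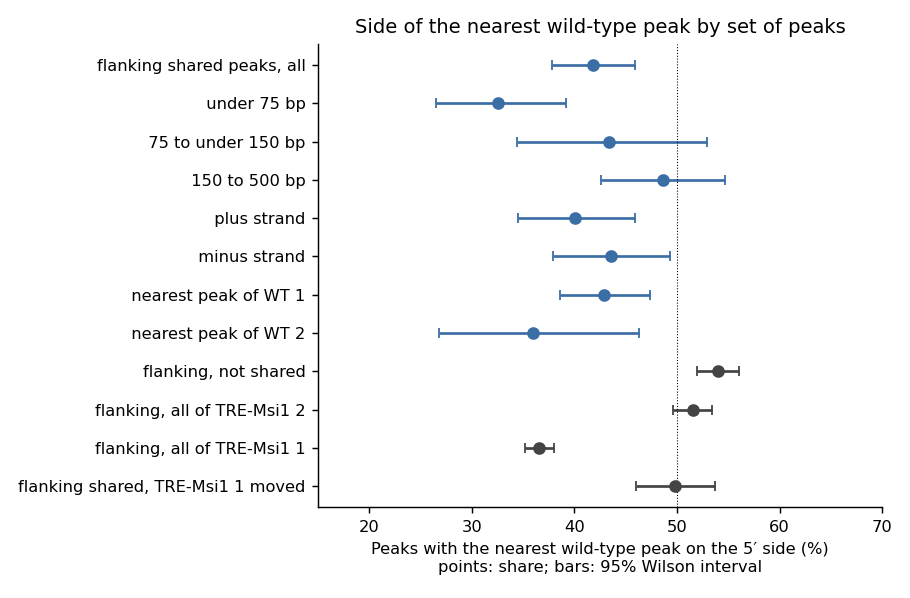
Percent of flanking peaks whose nearest wild-type peak is on the 5' side (x axis), by set of peaks (rows); points are shares, bars are 95% Wilson intervals and the dotted line at 50% marks equal sides. Members under 75 bp stand at 32.5%, unshared flanking peaks at 54.0%, all flanking peaks of TRE-Msi1 replicate 1 at 36.6% and members chosen with TRE-Msi1 replicate 1 moved at 49.8%.

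Most members lay beside a peak of wild-type replicate 1. It was the only wild-type list with a peak within 500 bp for 422 members, wild-type replicate 2 was the only one for 53, and both had one for 95. The nearest peak came from replicate 1 in 84.4% (81.2 to 87.1%) of members and in 68.0% of unshared flanking peaks, although the replicate 1 list is the shorter. Without wild-type replicate 1 the rule gave 225 peaks, and without wild-type replicate 2 it gave 549. Wild-type peaks stood on both sides within 500 bp of 108 members (18.9%, 15.9 to 22.4%). Where both wild-type lists had a peak near, these lay on the same side in 60 of 95 members (63.2%). On the opposite strand, 2 members (0.351%) had a wild-type peak within 500 bp. The same share was 0.374% for shared peaks on a wild-type peak and 0.213% for those far from one. For unshared peaks with no wild-type peak within 500 bp on their own strand it was 0.134%. By score, the 82 distinct neighbours from wild-type replicate 2 stood at a median percentile of 56.2 (50.8 to 66.7) of their list. The 428 from wild-type replicate 1 stood at 67.9 (64.7 to 70.8) by row order, which was not shown to follow peak strength in a list whose scores are all 0.

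With at least 1 TRE-Msi1 list, wild-type replicate 1 neighbours were overlapped about as often as all peaks of that list. Neighbours from wild-type replicate 2, the smaller group, were overlapped more often than all peaks of their list. By the rule each neighbour lies within 500 bp of a member, and so near peaks of both TRE-Msi1 lists. All peaks of a wild-type list were not so chosen, so the comparisons with whole lists are no finding about the neighbours. The shares of neighbours count members, so a neighbour of several members counts more than once. The nearest wild-type peak was overlapped by a peak of at least 1 TRE-Msi1 list for 327 members (57.4%, 53.3 to 61.4%), by replicate 1 for 277 (48.6%), by replicate 2 for 112 (19.6%, 16.6 to 23.1%) and by both for 62 (10.9%). With TRE-Msi1 replicate 1 moved, the share overlapped by either list was 73.0%, but the share of all wild-type peaks was not computed with the moved list. For members nearest to wild-type replicate 1 the share with either list was 59.9%, beside 58.4% of all peaks of that list. For those nearest to wild-type replicate 2 it was 43.8% (34.0 to 54.2%), beside 20.2% of all peaks of that list. By the TRE-Msi1 replicate 2 list alone, the neighbour was overlapped for 19.1% of members nearest to wild-type replicate 1, beside 30.8% of all its peaks. For members nearest to wild-type replicate 2 it was overlapped for 22.5%, beside 15.6% of all peaks of that list.

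Under 75 bp, the nearest wild-type peak was overlapped by either TRE-Msi1 list for 49.5% (42.8 to 56.3%) of members and by replicate 2 for 11.7% (7.96 to 16.7%). At 75 bp or more these shares were 61.8% (56.7 to 66.7%) and 24.2% (20.1 to 28.8%). For TRE-Msi1 replicate 1 alone the share was 44.7% (38.0 to 51.5%) under 75 bp and 50.8% (45.7 to 55.9%) at 75 bp or more. These intervals take each member as independent, and the difference between close and distant neighbours was not tested. A wild-type neighbour close to a member leaves less room for another 75 bp peak of replicate 2, and the part of this in the difference was not tested. For 28 members (4.91%), all under 75 bp, 1 peak of TRE-Msi1 replicate 1 overlapped both the member and its wild-type neighbour. The 570 members had 510 distinct nearest wild-type peaks. Of these, 42 were nearest to 2 distinct members and none to more, and 18 of them had members on both sides.

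The authors' scores of members lay between those of the other shared peaks. These scores have no stated unit and were read only as ranks within a list, and they are the authors' own values for each peak. In TRE-Msi1 replicate 2 the members had a median score of 10 (quartiles 7 and 17, range 4 to 176), at the 81.8th percentile of the list (79.6 to 85.2). Shared peaks that overlapped a wild-type peak stood at the 90.4th percentile, shared peaks with none within 500 bp at the 69.2nd, and unshared flanking peaks at the 70.5th. In TRE-Msi1 replicate 1 the median score of the overlapping peaks was 2.1 for members (quartiles 1.8 and 2.7, range 1.5 to 13.7), at the 66.2nd percentile (64.4 to 68.6), against the 81.6th for shared peaks on a wild-type peak and the 49.5th for those far from one. The same order of the 3 shared sets appeared in both TRE-Msi1 lists.

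High scores in one list were not always high in the other. In the top 10% of TRE-Msi1 replicate 2 lay 211 members (37.0%), in the top 10% of replicate 1 lay 85 (14.9%), and 53 lay in both. At the other end, 107 members (18.8%) stood below the middle rank of the replicate 2 list, where tied scores were ranked by chromosome and position. Across the 570 members, Spearman's rho between the scores in the TRE-Msi1 lists was 0.262. Across the same members, rho between distance and score was -0.00295 in replicate 2 and -0.158 in replicate 1. Members of one locus are not independent, and these values are descriptions. By distance, the median percentile in replicate 1 was 74.9 under 75 bp and 60.9 at 150 bp or more, while in replicate 2 it was 84.3 and 81.7.

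**Figure D4:**
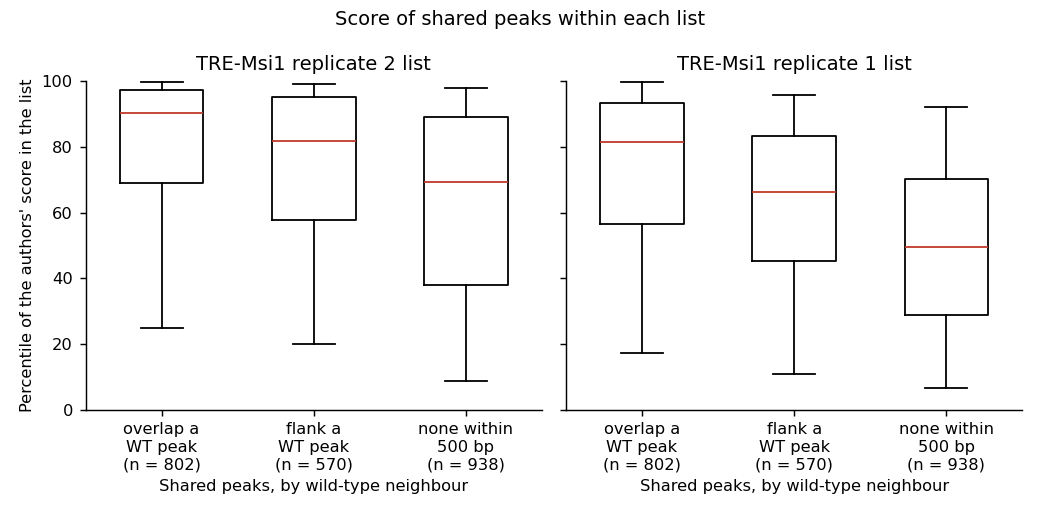
Percentile of the authors' score within TRE-Msi1 replicate 2 (left) and replicate 1 (right) for the 3 sets of shared peaks; the line in each box is the median, the box spans the quartiles and the whiskers run from the 5th to the 95th percentile of the set. In both lists the members (medians 81.8 and 66.2) lie between shared peaks on a wild-type peak (90.4 and 81.6) and shared peaks far from one (69.2 and 49.5).

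A member of 75 bp and its TRE-Msi1 replicate 1 peak of 40 bp overlapped by a median of 32 bases (quartiles 16 and 40), and 204 members (35.8%) held a 40 bp peak whole. The medians were 26.5 bases for shared peaks on a wild-type peak and 25.5 bases for those far from one. The replicate 1 centre lay 5' of the member's centre in 333 members (58.4%, 54.3 to 62.4%). Of the members, 10 overlapped 2 peaks of replicate 1.

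Other TRE-Msi1 peaks lay near most members. Besides the peak that they overlap, 488 members (85.6%) had at least 1 other TRE-Msi1 replicate 1 peak within 500 bp, with a mean of 2.14. That share was 63.8% for shared peaks on a wild-type peak, 38.8% for those far from one and 61.1% for unshared flanking peaks. The mean was 1.49 for shared peaks on a wild-type peak, 0.645 for shared peaks far from one and 1.30 for unshared flanking peaks. Another interval of TRE-Msi1 replicate 2 lay within 500 bp of 362 members (63.5%), against 44.9% of shared peaks on a wild-type peak, 30.8% of those far from one and 51.4% of unshared flanking peaks. Having a wild-type peak near was part of the rule for members and for unshared flanking peaks, and not for the shared peaks far from one. Overlap with a TRE-Msi1 replicate 1 peak was required of all shared peaks, and unshared flanking peaks overlap none. These comparisons therefore use the lists that chose the sets and are no finding about the members.

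Along the RNA, most members stood alone but a sizeable share lay near another. Members of one strand within 10 kb of each other were joined into a locus, which gave 457 loci. A single distinct member made up 371 of them, 77 held 2 and 9 held 3. The 86 loci with at least 2 held 181 of the 552 distinct members (32.8%, 29.0 to 36.8%). By the same joining, 23.0% of the distinct shared peaks on a wild-type peak and 18.1% of those far from one stood in a locus with another of their set. The rule chose members near wild-type peaks, and a single wild-type peak can have several members. The part of this in the higher share of members was not tested.

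Most loci with several members were short. Members with the same nearest wild-type peak each lie within 500 bp of it by the rule, which bounds their span. Spans were not compared with those of the other shared sets. From the first to the last member, the 86 loci spanned a median of 674.5 bp (568 to 918 bp, range 76 to 9095 bp), and 57 of them spanned at most 1000 bp, while 3 spanned more than 5000 bp. The gap between consecutive members was a median of 494 bp (308 to 621 bp), with 10 pairs overlapping and 10 more than 2000 bp apart. In 51 of the 86 loci the members had more than 1 nearest wild-type peak among them, and in 63 at least 1 of the neighbours was listed after induction. In 43 loci no members had the nearest wild-type peak on opposite sides, counting the locus that holds the member at equal distance on both sides. A shared peak on a wild-type peak lay within 10 kb of 177 distinct members (32.1%), and a shared peak far from one lay within 10 kb of 90 (16.3%).

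The 9 loci with 3 members spanned 471 to 1831 bp. With 500 bp added on each side they held 2 to 4 wild-type replicate 1 peaks, 6 to 13 TRE-Msi1 replicate 1 peaks and 3 to 6 TRE-Msi1 replicate 2 peaks, and in 7 of them there was no wild-type replicate 2 peak. In 7 of the 9, some members had the nearest wild-type peak 5' and others had it 3'. In the loci on chromosomes 3 (plus strand), 6, 18 (minus strand) and X, 2 of the members overlapped the same TRE-Msi1 replicate 1 peak. Those 2 members are thus not shared separately. Members of other loci were not counted in this way. On chromosome 3, plus strand, 3657796 to 3658822, all 3 members had the wild-type peak 5', at 288, 344 and 26 bp. On chromosome 18, plus strand, 20760816 to 20762646, all 3 had it 3', at 12, 18 and 118 bp, and each of these neighbours was overlapped by TRE-Msi1 replicate 1. On chromosome 6, plus strand, 17615033 to 17615959, no neighbour was overlapped by either TRE-Msi1 list.

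The minus-strand locus on chromosome 3 at 65183598 to 65184909 had both wild-type libraries near it, with 3 and 2 peaks. Its members scored 22, 29 and 9 in TRE-Msi1 replicate 2. The locus on chromosome 11, minus strand, 95725211 to 95726607, had members 101, 452 and 178 bp from their wild-type peaks, each of which TRE-Msi1 replicate 2 also overlapped. On chromosome 14, plus strand, 99712730 to 99714307, 2 of the members flank a single wild-type peak from either side, at 135 and 412 bp. The other loci with 3 members were on chromosome 18 (minus strand, 36664706 to 36665642), X (plus strand, 136206713 to 136207183) and 9 (minus strand, 42062673 to 42063336). Among the loci with 2 members, the one of highest mean percentile was on chromosome 2, plus strand, 143767991 to 143768385, where both members enclose wild-type peaks of both libraries.

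**Figure D5:**
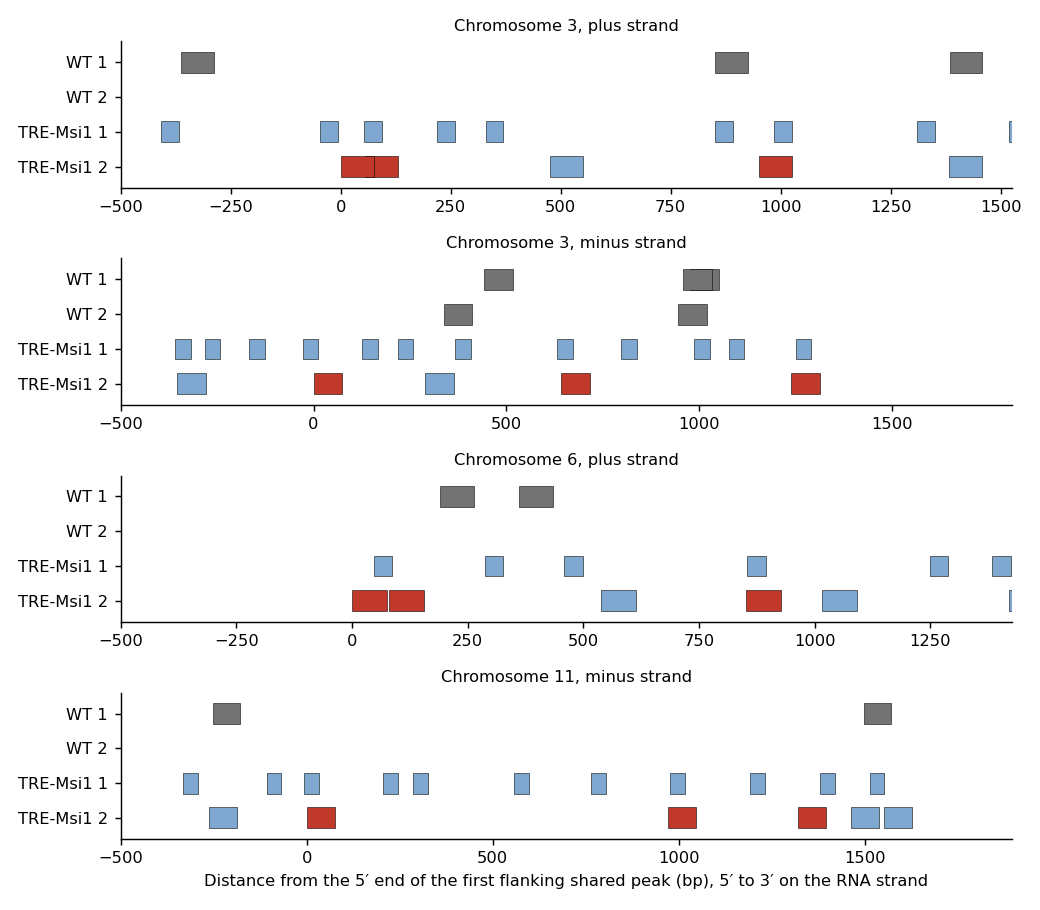
Peaks of the 4 lists around the 4 loci with 3 members of highest mean score percentile, each drawn 5' to 3' on its strand from 500 bp before the first member; the x axis is the distance in bp. Each box is a peak: grey for wild type, blue for TRE-Msi1 and red for the flanking shared peaks. Each map holds 3 red boxes and, by the rule, no red box shares a position with a grey one. In each map TRE-Msi1 replicate 1 peaks lie both between the members and outside them.

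Ranked by the mean of the score percentiles in both TRE-Msi1 lists, the 10 highest members lay 9 to 118 bp from their wild-type peak, which was 5' in 6 and 3' in 4. The nearest list was wild-type replicate 1 in 5 and replicate 2 in 5, and for 6 of the 10 the neighbour was overlapped by neither TRE-Msi1 list. The highest was on chromosome 17, plus strand, 39985078 to 39985152, with scores of 157 in TRE-Msi1 replicate 2 and 13.7 in replicate 1. Its neighbour, 57 bp to the 5' side, had a score of 451 in wild-type replicate 2. Next came a peak on the mitochondrial chromosome, plus strand, 363 to 437, with scores of 176 and 7.1 and a wild-type replicate 1 peak 18 bp to the 5' side.

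A minus-strand member on chromosome 11, 99290194 to 99290268, scored 51 and 7.1, with wild-type replicate 1 at 9 bp on the 3' side. On chromosome 6, plus strand, 128626093 to 128626167 scored 80 and 6, and 40718930 to 40719004 scored 100 and 5, both with wild-type replicate 1 on the 5' side at 41 and 75 bp. A minus-strand member on chromosome 19, 5801763 to 5801837, scored 161 and 5.3 and lay 118 bp from a wild-type replicate 2 peak of score 13. The neighbours of these 4 members stood between the percentiles of 90.4 and 98.7 in their wild-type lists, by row order in replicate 1 and by score in replicate 2.

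The chromosome 2 locus supplied 2 of the 10. Its member at 143768311 to 143768385 scored 36 and 5.8, with a wild-type replicate 2 peak of score 8 at 33 bp, and its member at 143767991 to 143768065 scored 33 and 5.2, with wild-type replicate 1 at 72 bp. The remaining members were on chromosome 18, minus strand, 54858672 to 54858746, with scores of 22 and 10.2, and on chromosome 8, plus strand, 34808436 to 34808510, with 33 and 4.8. The chromosome 8 neighbour, 64 bp to the 5' side with a wild-type replicate 2 score of 4, was overlapped by both TRE-Msi1 lists.

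At the near end, 3 members touched their wild-type peak: 101926354 to 101926428 and 86025654 to 86025728 on chromosome 15 and 125202548 to 125202622 on chromosome 5, all on the plus strand. The second of them scored 4 in TRE-Msi1 replicate 2 and 13.1 in replicate 1, low in one list and high in the other. At 1 bp lay a plus-strand member on chromosome 8, 13174858 to 13174932, and a minus-strand member on chromosome 13, 104610248 to 104610322, which scored 38 and 1.8. At the far end were members on chromosomes 15 (8300212 to 8300286, 500 bp), 7 (86509240 to 86509314, 499 bp), 10 (7638847 to 7638921, 496 bp), 1 (120229572 to 120229646, 491 bp) and 11 (50199899 to 50199973, 490 bp). All of these near and far members had wild-type replicate 1 as the nearest list.

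The members were spread over the genome, with 283 (49.6%, 45.6 to 53.7%) on the plus strand. All numbered chromosomes and X held some, most on chromosomes 11 (42), 3 (41) and 2 (40). Per 1000 peaks of TRE-Msi1 replicate 2, their number on the numbered chromosomes and X ran from 8.64 on chromosome 4 to 19.5 on chromosome 15, with 14.0 over the whole list. The mitochondrial chromosome held 1 member among 15 peaks, and an unplaced part of chromosome 13 held 2 among 5.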

How the data were processed

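Msi1 CLIP-seq peak lists of 2 wild-type and 2 TRE-Msi1 libraries were used, grouped by sample title. Reads were handled with Bowtie and HOMER on mm9, per the submitters' processing notes, with versions, settings and roles not given in the sources used here. For each library the authors deposited 1 list with a position, strand and score, whose unit the deposited files do not state. The deposited score is 0 throughout wild-type replicate 1, so row order stood in for its rank. Overlap needed 1 bp on the same strand, and coordinates are 1-based. Shares carry 95% Wilson intervals. Flanking was counted up to 500 bp, loci were joined within 10 kb, and percentiles were taken within a list. Tied scores, which are frequent, were ranked by chromosome and position, so members of equal score can differ in percentile. The code was tested on simulated lists with planted distances and sides, and bedtools 2.31.1 found the same 570 members. The members, sets and alternatives were chosen with earlier results of these data known. Members named were the 10 of highest mean percentile, the 10 loci with the most members (ties by mean percentile), and the 5 closest and 5 farthest. Alternatives changed the overlap rule, distance, strand, peak width, score limit and libraries. Genes, transcript parts, sequence motifs and gene lists were not analysed here, as no mm9 annotation or genome was used. Because the 2 libraries of a group come from separate mice but every value is 1 per set of lists, no p-value is given. Tables were handled with pandas 2.3.3 and numpy 2.4.6 in Python 3.11.15, intervals used scipy 1.17.1, and plots were drawn with matplotlib 3.10.9.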

Additional observations from a re-analysis of the deposited data

How the results depend on the processing

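The number of members, 570, was 222 with reciprocal overlap of 50% and ran from 225 (without wild-type replicate 1) to 4324 (without TRE-Msi1 replicate 2) when 1 library was left out. The 5' share, 41.8%, was 35.3% over TRE-Msi1 replicate 1 peaks that overlap replicate 2, 46.0% with a limit of 2000 bp and 49.8% with TRE-Msi1 replicate 1 moved, and ran from 36.6% (without TRE-Msi1 replicate 2) to 51.5% (without TRE-Msi1 replicate 1) when 1 library was left out. The median distance, 121.5 bp, was 105.5 bp over TRE-Msi1 replicate 1 peaks, 70 bp, 192.5 bp and 259.5 bp with limits of 250, 1000 and 2000 bp, and 116 to 193.5 bp when 1 library was left out. The share of neighbours overlapped after induction, 57.4%, was 64.4% over TRE-Msi1 replicate 1 peaks, 52.3% with reciprocal overlap, 67.6% with peaks resized to 75 bp, 73.0% with TRE-Msi1 replicate 1 moved, and 18.0 to 60.5% when 1 library was left out. Leaving out a TRE-Msi1 list replaces the rule by peaks of the other list alone. The number of loci, 457, ran from 448 to 477 in its alternatives. No paired analysis was possible because no value comes from a test.

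Read depth is unknown, and a wild-type position without a peak has no measured upper limit. TRE-Msi1 replicate 1 differs in peak width, score format, strand share and centre, and its list takes part in the choice of every member.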

Other observations

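The strand share of the shared peaks also changed when TRE-Msi1 replicate 1 was moved. Plus-strand peaks made up 70.8% of the TRE-Msi1 replicate 1 list and 50.9% of the TRE-Msi1 replicate 2 list, but 45.2% (43.2 to 47.2%) of the 2310 peaks that both lists share. With TRE-Msi1 replicate 1 moved by 60 bp on the plus strand and 40 bp on the minus strand, 2984 peaks were shared, of which 52.1% (50.4 to 53.9%) were on the plus strand. For flanking shared peaks the plus-strand share was 49.6% as listed and 52.3% (48.4 to 56.2%) after the move. The number of shared peaks that overlap a wild-type peak was 1125 after the move and 802 before it.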
